A study of Homo sapiens with 9 samples.

Results

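Epithelial to mesenchymal transition (EMT) genes were examined in RNA-seq libraries of the prostate cancer line LNCaP:C4-2. The 10 genes were chosen by name for their textbook roles, at a time when earlier results of these data were known: the cadherins CDH1 and CDH2, the filament and matrix genes VIM and FN1, the transcription factors ZEB1, ZEB2, SNAI2 and TWIST1, and the splicing regulators ESRP1 and ESRP2. They are 10 of the 60675 genes counted, and all 10 were among the 19278 genes with enough counts to be tested. LNCaP:C4-2 is a castrate-resistant subline of the androgen-sensitive line LNCaP. The cells carried a doxycycline-inducible short hairpin RNA in a pLKO.1-puro lentiviral construct, and the virus was packaged in HEK293T, an embryonic kidney line. The hairpin was shScramble, which targets no gene, shMETTL3 guide 2 or shMETTL3 guide 1, both directed at METTL3, the catalytic subunit of the m6A RNA methyltransferase. Each group had 3 libraries. All groups were selected with puromycin, grown without phenol red in medium with charcoal-stripped serum, and given 1 µg/ml doxycycline for 6 days, also shScramble, although the sample titles name a vehicle. The sources do not say whether the libraries of a group came from separate cultures, so p-values measure only the spread between these libraries, which may be technical.

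In an epithelium, cells are joined by E-cadherin and the tight junction, and the splicing regulators ESRP1 and ESRP2 keep transcripts in their epithelial forms. During EMT, transcription factors of the ZEB, SNAIL and TWIST families repress CDH1 and other junction genes, and cells take up N-cadherin, vimentin and fibronectin and become motile. ZEB1 and ZEB2 are in turn held down by microRNAs of the miR-200 family, so that the epithelial and the mesenchymal state each keep themselves in place. In prostate cancer, luminal lines of the LNCaP family are known as epithelial and rich in E-cadherin, whereas several lines without androgen receptor are more mesenchymal.

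The targeted gene was checked first. METTL3 had counts of 922, 1010 and 753 with shScramble, 382, 415 and 349 with guide 2, and 837, 837 and 886 in the libraries labelled guide 1. It was lower with guide 2 (log2 fold change -0.95, SE 0.0687, adjusted p = 2.97e-12 by edgeR's quasi-likelihood test), where the libraries did not overlap those of shScramble. The corresponding value for label guide 1 was -0.08 (SE 0.0633, adjusted p = 0.251), so METTL3 RNA was not shown to be lower there and the libraries are named by their label throughout. Of METTL3's exon bases, 6.58% lie also in TOX4, a gene of the opposite strand with more counts than METTL3 in each library, so reads of that stretch cannot be told apart. An exact two-sided permutation test of the normalised levels gave p = 0.1 with guide 2 and p = 0.2 with guide 1, and 0.1 is the smallest p that 3 libraries against 3 allow. Libraries held 21899501 to 30897639 counts. Genes with at least 1 count numbered 24884 to 26505 with guide 2, below the 28459 to 29586 with shScramble and the 29193 to 29628 in the libraries labelled guide 1.

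The groups also differed in marker lists of other cells and cell lines, which are given here because they bear on every result. The summed level of 11 genes known from HEK293T, among them LIN28B, IGF2BP1, HMGA2 and the neurofilaments NEFL, NEFM and INA, was 32.6 to 35.6 CPM (counts scaled to the normalised library total) with shScramble, 4.31 to 6.33 CPM with guide 2 and 346 to 362 CPM in the libraries labelled guide 1. Of these 11 genes, 10 were lower with guide 2 and 10 were higher in the libraries labelled guide 1, and the exception in both was PAX8. Over all genes tested, 20.4% were called lower and 8.85% higher with guide 2, and 21.2% higher and 16.5% lower in the libraries labelled guide 1. None of the 11 was at 0 in any library of shScramble or of label guide 1, and at most 1 was at 0 in a guide 2 library. The summed level of 14 prostate luminal markers, the labelled cell type, was 3230 to 3290 CPM with shScramble, 3870 to 4000 CPM with guide 2 and 1680 to 1740 CPM in the libraries labelled guide 1. Of these 14 genes, 3 rose and 2 fell with guide 2, and 0 rose and 9 fell in the libraries labelled guide 1. Other cell types were nearly absent: basal markers summed to at most 0.199 CPM, immune markers to at most 0.55 CPM and endothelial markers to at most 3.49 CPM in any library, with KRT5, TP63, CD3E and PECAM1 at 0 throughout. Fibroblast markers summed to 43.5 to 46.7 CPM, 37.3 to 40.6 CPM and at most 26.4 CPM in the same order of groups, with DCN at 0. Nearly all of that sum was COL1A1, at 43.4, 35.3 and 21.1 CPM on average, whereas PDGFRB, the other fibroblast marker tested, rose with guide 2 from 1.63 to 4.02 CPM. Neuroendocrine markers summed to 9.67 to 11.9 CPM, 3.39 to 5.03 CPM and 75.2 to 79.2 CPM, and genes of prostate lines without androgen receptor to 32.6 to 40.4 CPM, 7.46 to 8.48 CPM and 112 to 122 CPM. Whether the libraries labelled guide 1 hold RNA of another cell line was not tested, and what a value there says of a METTL3 hairpin is limited to that extent. The same was not tested for shScramble, where the summed HEK293T-line genes were 6.34 times as high as with guide 2. What a difference between guide 2 and shScramble says of a METTL3 hairpin is limited likewise.

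With guide 2, 6 of the 10 EMT genes fell, namely CDH2, VIM, ZEB1, ZEB2, SNAI2 and TWIST1, and 0 rose. Calls required an adjusted p under 0.05 together with a change of 1.5-fold or more, and at these limits 29.3% of all genes tested were called in this comparison, 8.85% higher and 20.4% lower. In the libraries labelled guide 1 the same 6 genes rose and CDH1, ESRP1 and ESRP2 fell, against a background of 37.7% of all genes called, 21.2% higher and 16.5% lower. FN1 was called in neither comparison. Both comparisons share the shScramble libraries. With the libraries labelled guide 1 left out of the fit, 5 of the 6 genes were still called lower with guide 2 and TWIST1 had too few counts to be tested. Between the guides themselves, 2 EMT genes were higher with guide 2 (CDH1 and ESRP2) and 6 were lower, where 47.3% of all genes were called, 19.1% higher and 28.2% lower. The median log2 fold change of the 10 genes was -2.36 with guide 2, 2.84 in the libraries labelled guide 1 and -5.20 between the guides, beside -0.04, -0.02 and -0.06 over all genes tested. In bulk RNA, fewer cells of a type and less RNA of a gene per cell cannot be told apart.

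**Figure D1:**
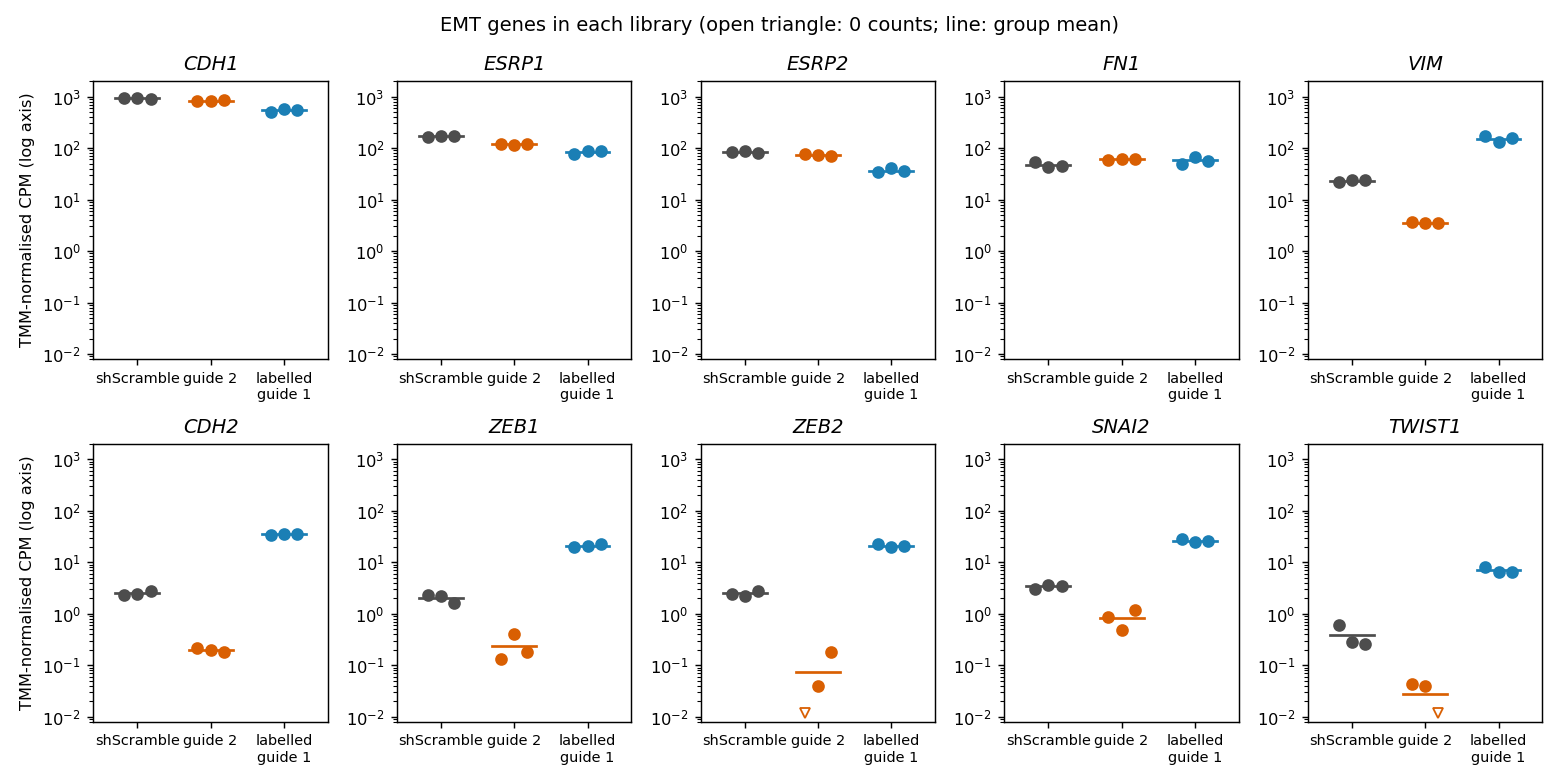
Level of each EMT gene in each library, as TMM-normalised CPM on a log axis; points are libraries, lines are group means over 3 libraries and open triangles at the foot of a panel mark libraries with 0 counts. VIM, CDH2, ZEB1, ZEB2, SNAI2 and TWIST1 are lowest with guide 2 and highest in the libraries labelled guide 1, whereas CDH1, ESRP1 and ESRP2 are highest with shScramble and lowest in the libraries labelled guide 1.

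CDH1 encodes E-cadherin, the calcium-dependent adhesion molecule of epithelial cells (ENSG00000039068, GRCh38 chromosome 16, 68737225 to 68835548, plus strand). CDH1 had counts of 29335, 30357 and 20015 with shScramble, 19107, 20150 and 18985 with guide 2, and 14400, 15795 and 16529 in the libraries labelled guide 1. After normalisation these were 926 ± 42.9, 831 ± 28.7 and 542 ± 32.8 CPM (SD, n = 3), and no 2 groups overlapped. CDH1 did not reach the fold limit with guide 2 (log2 fold change -0.16, SE 0.0514, adjusted p = 0.00982) and fell in the libraries labelled guide 1 (-0.77, SE 0.0518, adjusted p = 2.01e-13). It was higher with guide 2 than in the libraries labelled guide 1 by a log2 fold change of 0.61, just over the fold limit. That call was lost with scaling by library size alone (0.48), with a minimum mean of 1 CPM (0.57) and without guide 1 replicate 1 (0.57). Beside CDH1, the luminal markers were also lower in the libraries labelled guide 1: per 100 counts of the 14 luminal genes there were 27.1 to 29.4 counts of CDH1 with shScramble, 20.8 to 21.5 with guide 2 and 30.0 to 32.8 with label guide 1. The part of the luminal marker level in the CDH1 result was not tested.

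CDH2 encodes N-cadherin, the cadherin of neural and mesenchymal cells (ENSG00000170558, chromosome 18, 27950966 to 28177446, minus strand). CDH2 had counts of 71, 78 and 62 with shScramble, 5, 5 and 4 with guide 2, and 979, 1000 and 1042 in the libraries labelled guide 1. The 3 groups were wide apart, at 2.49 ± 0.212, 0.199 ± 0.0177 and 35.1 ± 0.835 CPM (SD, n = 3). CDH2 fell with guide 2 (log2 fold change -3.60, SE 0.257, adjusted p = 2.21e-12) and rose in the libraries labelled guide 1 (3.83, SE 0.099, adjusted p = 1.4e-22). The 14 counts with guide 2 put the ratio of shScramble to guide 2 at 12.4, with a 95% counting interval of 7.21 to 23.0. The balance of the cadherins, read as the ratio of CDH1 to CDH2 in CPM per kilobase of exon, was 331, 312 and 259 with shScramble, 3060, 3230 and 3800 with guide 2, and 11.8, 12.7 and 12.7 in the libraries labelled guide 1. CDH1 thus had the higher level per length in every library, and the ratio of the 2 cadherins did not overlap between any groups.

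VIM encodes vimentin, the intermediate filament of mesenchymal cells (ENSG00000026025, chromosome 10, 17228259 to 17237593, plus strand). VIM had counts of 690, 752 and 536 with shScramble, 83, 88 and 79 with guide 2, and 4821, 3674 and 4675 in the libraries labelled guide 1. Levels were 23.1 ± 0.711, 3.56 ± 0.0475 and 153 ± 18.8 CPM (SD, n = 3), without overlap. VIM fell with guide 2 (log2 fold change -2.70, SE 0.109, adjusted p = 2.97e-15) and rose in the libraries labelled guide 1 (2.72, SE 0.0714, adjusted p = 2.2e-19). The antisense gene VIM-AS1 shares 12.9% of the exon bases of VIM, and the strand setting of the counting is not given in the sources used here, so reads of the shared part cannot be told apart. VIM-AS1 itself had 24 to 36 counts with shScramble, 7 or 8 with guide 2 and 32 to 48 in the libraries labelled guide 1. The 250 bases before the VIM start site in the RefSeq promoter table (GRCh38.p14, chr10:17227991-17228240, plus strand) are shown because VIM had the highest level per length of the 6 genes that were called in both comparisons with shScramble.
VIM promoter: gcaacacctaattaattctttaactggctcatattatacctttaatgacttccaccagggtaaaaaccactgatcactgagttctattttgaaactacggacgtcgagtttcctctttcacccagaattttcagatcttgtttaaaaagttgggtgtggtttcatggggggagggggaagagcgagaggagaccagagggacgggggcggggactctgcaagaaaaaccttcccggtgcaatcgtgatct
Neither CACCTG nor its reverse complement CAGGTG, the E-box hexamers that ZEB and SNAIL proteins are known to bind, occurs in this window.

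FN1 encodes fibronectin, a matrix glycoprotein made by mesenchymal and by some epithelial cells (ENSG00000115414, chromosome 2, 215360440 to 215436172, minus strand). FN1 had counts of 1661, 1334 and 1012 with shScramble, 1345, 1514 and 1376 with guide 2, and 1415, 1891 and 1683 in the libraries labelled guide 1. Levels were 46.7 ± 6.25, 60.3 ± 2.03 and 58.0 ± 9.32 CPM (SD, n = 3). All guide 2 libraries lay above those of shScramble, whereas the libraries labelled guide 1 overlapped both other groups. The log2 fold change was 0.37 with guide 2 (SE 0.13, adjusted p = 0.0374, under the fold limit) and 0.31 in the libraries labelled guide 1 (SE 0.129, adjusted p = 0.0605). Between the guides it was 0.06 (adjusted p = 0.703). FN1 was the single gene of the 10 that was called in no comparison, and its adjusted p lay on either side of 0.05 under the alternatives, from 1.67e-06 to 0.206 with guide 2 and from 7.46e-05 to 0.169 in the libraries labelled guide 1.

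ZEB1 is a zinc finger repressor of epithelial genes (ENSG00000148516, chromosome 10, 31318495 to 31529814, plus strand). ZEB1 had counts of 71, 69 and 37 with shScramble, 3, 10 and 4 with guide 2, and 552, 566 and 676 in the libraries labelled guide 1. Levels were 2.03 ± 0.359, 0.237 ± 0.143 and 20.8 ± 1.66 CPM (SD, n = 3), without overlap. ZEB1 fell with guide 2 (log2 fold change -3.07, SE 0.305, adjusted p = 1.53e-09) and rose in the libraries labelled guide 1 (3.33, SE 0.134, adjusted p = 2.33e-18). Without guide 2 replicate 2, which held 10 of the 17 counts, the fall was -3.69. The antisense gene ZEB1-AS1 shares 4.23% of the exon bases of ZEB1 and had 195 to 395 counts in every library, more than ZEB1 itself with shScramble or guide 2, so a part of the few ZEB1 reads there cannot be told apart from it.

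Of the 10 genes, CDH2, VIM, FN1, ZEB1 and ZEB2 had entries in the RefSeq promoter table, with 12 windows of 250 bases before a start site. The hexamers CACCTG or CAGGTG, which are each other's reverse complement so that both strands are covered, were found in 2 of the 7 ZEB1 windows and in none of the windows of CDH2, VIM, FN1 and ZEB2. Over all 35116 windows of that length, 17.5% held at least 1 and 2.53% at least 2. The 3 matches in ZEB1 are shown, since ZEB1 is itself a protein of this family, with the hexamer in capitals in 22 bases on the plus strand (GRCh38.p14).
chr10:31318352-31318373, hexamer beginning 57 bases before a start site: ggtgacagCAGGTGagggccgg
chr10:31318966-31318987, hexamer beginning 242 bases before another: ccccaccaCACCTGaggaaaac
chr10:31319123-31319144, hexamer beginning 85 bases before the same one: tcgtaaacCAGGTGcggtgggg
A match describes these letters only, and binding was not measured.

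ZEB2, the paralogue of ZEB1 with the same kind of target site (ENSG00000169554, chromosome 2, 144384081 to 144524583, minus strand), had a log2 fold change of -8.09 between the guides, which was -9.67 without guide 2 replicate 3. ZEB2 had counts of 75, 72 and 63 with shScramble, 0, 1 and 4 with guide 2, and 634, 538 and 612 in the libraries labelled guide 1. Levels were 2.48 ± 0.254, 0.0737 ± 0.0953 and 20.7 ± 1.46 CPM (SD, n = 3), and guide 2 was near the limit of detection. ZEB2 fell with guide 2 (log2 fold change -5.02, SE 0.383, adjusted p = 8.39e-12) and rose in the libraries labelled guide 1 (3.07, SE 0.131, adjusted p = 9.06e-18). The fitted fall rests on 5 counts in all: the ratio of shScramble to guide 2 was 34.5 with a 95% counting interval of 14.5 to 107, and without guide 2 replicate 3 the log2 fold change was -6.60.

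The microRNAs that hold ZEB1 and ZEB2 down were not measured, but a host gene was. The mature forms made from MIR200CHG are shown as RefSeq gives them (GRCh38.p14, plus strand of chromosome 12), with the seed, bases 2 to 8, in capitals; the seeds of the pair are not identical.
hsa-miR-200c-3p, chr12:6963742-6963764: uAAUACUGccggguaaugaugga
hsa-miR-141-3p, chr12:6964155-6964176: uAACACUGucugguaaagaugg
MIR200CHG had counts of 68, 69 and 50 with shScramble, 41, 41 and 52 with guide 2, and 41, 31 and 26 in the libraries labelled guide 1. The guide 2 libraries overlapped those of shScramble, and the libraries labelled guide 1 lay below both. MIR200CHG was not called with guide 2 (log2 fold change -0.19, adjusted p = 0.47) and fell in the libraries labelled guide 1 (-0.94, adjusted p = 0.000809), the group in which ZEB1 and ZEB2 were highest. The summed luminal markers were 0.528 times as high in that group as with shScramble. A part of MIR200CHG in the levels of ZEB1 and ZEB2 was not tested. MIR205HG, the host of another microRNA of ZEB1 and ZEB2, had 0 counts in all libraries.

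SNAI2, also called SLUG, is a zinc finger repressor of CDH1 (ENSG00000019549, chromosome 8, 48917690 to 48921740, minus strand). SNAI2 had counts of 94, 117 and 79 with shScramble, 20, 12 and 26 with guide 2, and 788, 689 and 789 in the libraries labelled guide 1. Levels were 3.39 ± 0.322, 0.841 ± 0.351 and 26.3 ± 1.43 CPM (SD, n = 3), without overlap. SNAI2 fell with guide 2 (log2 fold change -2.03, SE 0.209, adjusted p = 2.79e-09) and rose in the libraries labelled guide 1 (2.95, SE 0.117, adjusted p = 1.51e-18). Its fall with guide 2 was the smallest of the 6 that were called.

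TWIST1, a basic helix-loop-helix factor that represses CDH1 and induces CDH2 (ENSG00000122691, chromosome 7, 19020991 to 19117672, minus strand), had the fewest counts. TWIST1 had counts of 19, 9 and 6 with shScramble, 1, 1 and 0 with guide 2, and 227, 178 and 195 in the libraries labelled guide 1. Levels were 0.387 ± 0.198, 0.0277 ± 0.0241 and 6.97 ± 0.871 CPM (SD, n = 3). TWIST1 was called lower with guide 2 (log2 fold change -3.60, SE 0.731, adjusted p = 0.000123) and higher in the libraries labelled guide 1 (4.12, SE 0.242, adjusted p = 1.06e-14). It passed the filter on low counts only through the libraries labelled guide 1: the minimum was reached in 1 of 3 shScramble libraries and 0 of 3 guide 2 libraries, and in a fit of these 6 libraries alone TWIST1 was not tested. With 34 counts over shScramble and 2 over guide 2, the ratio was 13.9 with a 95% counting interval of 3.58 to 120. The ratio of the libraries labelled guide 1 to guide 2 was 245, with an interval of 67.4 to 2020.

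ESRP1 is the main epithelial splicing regulator of the pair (ENSG00000104413, chromosome 8, 94641074 to 94707466, plus strand). ESRP1 had counts of 5137, 5404 and 3945 with shScramble, 2823, 2947 and 2685 with guide 2, and 2222, 2424 and 2601 in the libraries labelled guide 1. Levels were 170 ± 3.32, 121 ± 2.65 and 84.1 ± 5.27 CPM (SD, n = 3), without overlap. The log2 fold change with guide 2 was -0.49 (SE 0.0475, adjusted p = 8.45e-10), short of the fold limit, and it passed that limit with scaling by library size alone (-0.64), which moved the median of all genes by -0.15. ESRP1 fell in the libraries labelled guide 1 (-1.01, SE 0.0481, adjusted p = 1.02e-16). Between the guides the difference of 0.52 was under the fold limit.

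ESRP2, its paralogue (ENSG00000103067, chromosome 16, 68229111 to 68238102, minus strand), was called between the guides, where ESRP1 was not. ESRP2 had counts of 2564, 2770 and 1865 with shScramble, 1768, 1875 and 1578 with guide 2, and 956, 1114 and 1061 in the libraries labelled guide 1. Levels were 83.9 ± 2.76, 74.3 ± 2.58 and 36.4 ± 3.36 CPM (SD, n = 3), without overlap. ESRP2 was not called with guide 2 (log2 fold change -0.17, SE 0.0555, adjusted p = 0.00789), fell in the libraries labelled guide 1 (-1.21, SE 0.0577, adjusted p = 1.2e-16) and was higher with guide 2 than with label guide 1 (1.03, SE 0.0585, adjusted p = 3.04e-15). The ratio of ESRP1 to ESRP2 in CPM per kilobase was 2.29, 2.23 and 2.41 with shScramble, 1.82, 1.79 and 1.94 with guide 2, and 2.65, 2.48 and 2.80 in the libraries labelled guide 1. The 3 groups did not overlap in this ratio. Per 100 counts of the luminal markers, ESRP1 gave 5.05 to 5.34 with shScramble, 3.04 to 3.09 with guide 2 and 4.64 to 5.03 with label guide 1, and ESRP2 gave 2.52 to 2.68, 1.79 to 1.93 and 1.99 to 2.31.

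**Figure D2:**
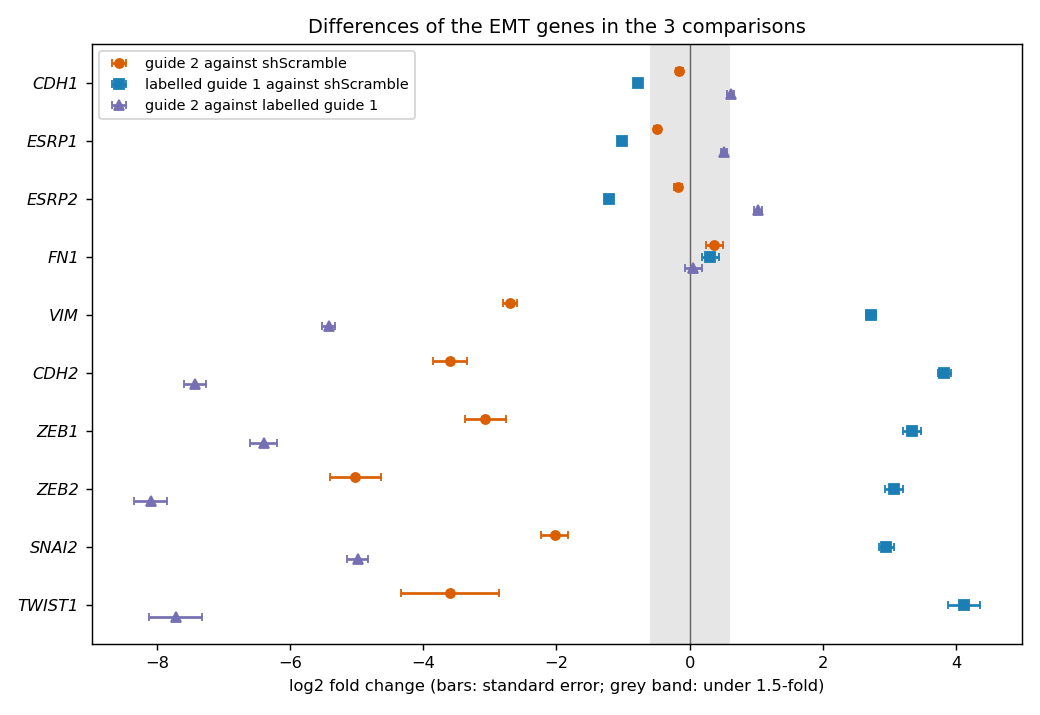
Log2 fold change of each EMT gene in the 3 comparisons, with bars of 1 standard error and a grey band for changes under 1.5-fold. The 6 mesenchymal genes lie to the left with guide 2 and to the right in the libraries labelled guide 1, CDH1, ESRP1 and ESRP2 lie to the left of 0 in both, and FN1 stays inside the band.

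Per length, the order of the genes changed with the group. With shScramble, CDH1 was highest at 150 ± 6.95 CPM per kilobase (SD, n = 3), followed by ESRP1, ESRP2, VIM, FN1, SNAI2, CDH2, ZEB1, TWIST1 and ZEB2, and ZEB1 and TWIST1 alone among neighbours overlapped. With guide 2, FN1 stood above VIM, and CDH2, ZEB1, TWIST1 and ZEB2 each overlapped the next, between 0.0402 and 0.00336 CPM per kilobase on average. In the libraries labelled guide 1, VIM came second at 30.7 ± 3.78 CPM per kilobase, above ESRP1 at 17.2 ± 1.08, and SNAI2 and CDH2 reached 11.5 ± 0.629 and 7.09 ± 0.169. CDH2 overlapped ESRP2 there, and TWIST1 overlapped FN1. CDH1 remained the highest of the 10 genes per length in each group, at 134 ± 4.64 with guide 2 and 87.8 ± 5.31 in the libraries labelled guide 1.

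The 6 genes moved beside the HEK293T-line genes, so both were set against each other within libraries. Per 100 counts of the 11 HEK293T-line genes, VIM gave 66.0 to 70.0 counts with shScramble, 56.8 to 81.5 with guide 2 and 37.0 to 48.9 in the libraries labelled guide 1. ZEB1 gave 4.56 to 7.04, 2.05 to 9.26 and 5.60 to 6.25, and CDH2 gave 7.04 to 7.64, 3.33 to 4.63 and 9.64 to 10.1. The ranges of VIM and ZEB1 with guide 2 enclosed those with shScramble, whereas CDH2 was lower with guide 2 and higher in the libraries labelled guide 1 relative to the list. For ZEB1 the guide 2 range rests on 3, 10 and 4 counts, and the libraries at 2.05 and 3.33 lay below all those of shScramble. SNAI2 gave 9.32 to 10.9, 11.1 to 21.7 and 6.95 to 7.99, ZEB2 gave 6.70 to 7.76, 0 to 3.33 and 5.42 to 6.43, and TWIST1 gave 0.739 to 1.88, 0 to 0.926 and 1.79 to 2.30. FN1, which is not among the 6, did not move beside the list and gave 124 to 165, 921 to 1400 and 14.3 to 19.1. The summed list itself was 10.4 times as high in the libraries labelled guide 1 as with shScramble and 6.34 times as high with shScramble as with guide 2. The sums of neuroendocrine markers and of the genes of lines without androgen receptor moved in the same directions. Of their tested genes, 4 of 5 and 5 of 6 were lower with guide 2 (20.4% of all genes). In the libraries labelled guide 1, 4 and 3 were higher and 0 and 1 lower (21.2% and 16.5% of all genes). The rise of the latter sum there was mostly that of GSTP1. Of the 4 neuroendocrine genes lower with guide 2, CHGB and INSM1 reached the filter's minimum in all libraries of label guide 1 alone, as did LHX1 of the HEK293T-line genes. The part of these marker levels in the EMT results was not tested.

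**Figure D3:**
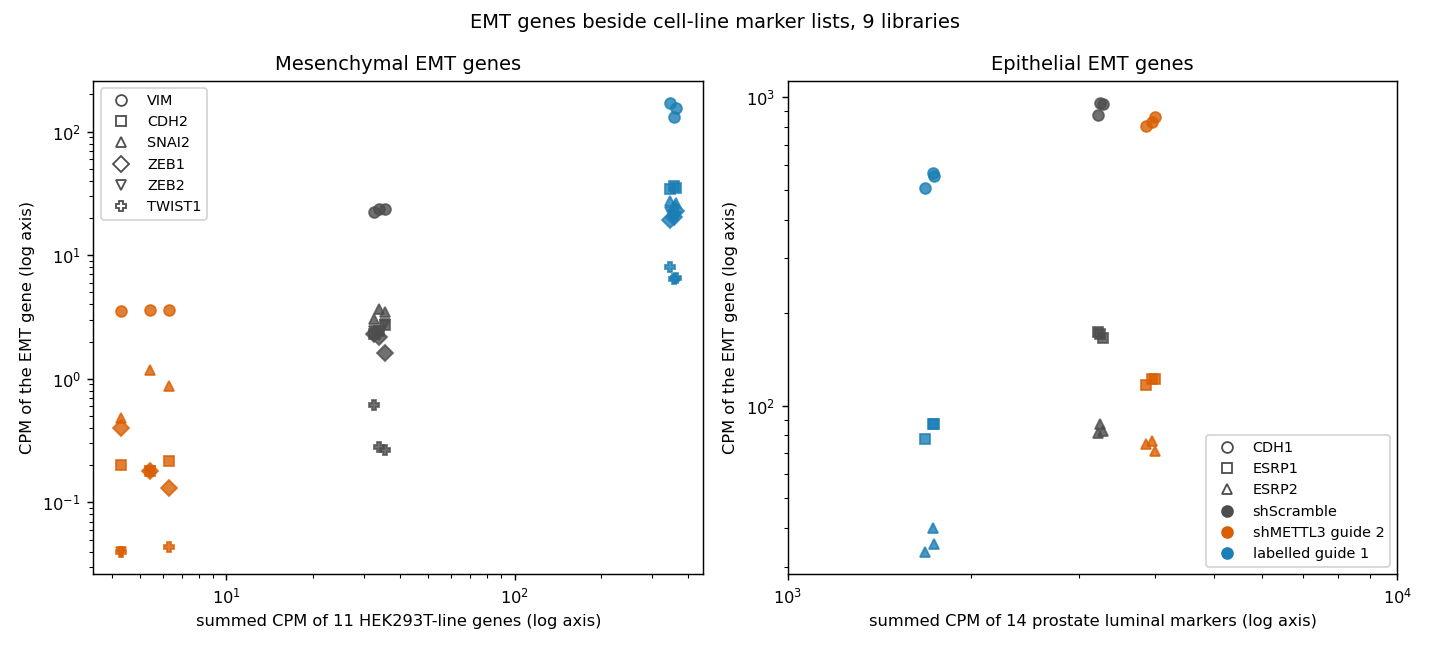
Level of EMT genes in each of the 9 libraries against summed marker levels, both as CPM on log axes; the left panel sets 6 mesenchymal genes against 11 HEK293T-line genes and the right panel 3 epithelial genes against 14 prostate luminal markers, with colours for groups and libraries with 0 counts of a gene left out. The groups form separate clusters on the left, ordered as guide 2, shScramble and label guide 1 on both axes, and on the right guide 2 has the highest marker sum but not the highest EMT gene levels. FN1 is in neither panel.

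The other genes of the pathway were taken as lists, of which counts are given as a description, to be read against the backgrounds of 8.85% higher and 20.4% lower with guide 2 and of 21.2% higher and 16.5% lower in the libraries labelled guide 1. Among 13 tested EMT transcription factors beyond the 10 genes, 1 rose and 3 fell with guide 2, and 7 rose and 1 fell in the libraries labelled guide 1. SNAI1, the founding SNAIL repressor, rose with guide 2 from 1.42 to 3.21 CPM (log2 fold change 1.17, adjusted p = 6.1e-05) and was not called in the libraries labelled guide 1 (-0.33). FOXC1, a forkhead factor, fell with guide 2 from 12.8 to 2.71 CPM (-2.23) and rose in the libraries labelled guide 1 to 115 CPM (3.18), and TCF4, a partner of TWIST proteins, went the same 2 ways (-0.90 and 2.69). The other fall with guide 2 was that of PRRX1, a homeobox factor, which had 4, 12 and 5 counts with shScramble, 1, 1 and 0 with guide 2 and 109, 111 and 109 in the libraries labelled guide 1. PRRX1 thus reached the minimum of the filter in all libraries of label guide 1 alone. Its calls in both comparisons therefore rest on that group's counts, as for TWIST1. TWIST2 and FOXC2, named after their values were seen, likewise had few counts outside that group. TWIST2 had 3 to 6 counts with shScramble, 5 to 7 with guide 2 and 85 to 110 with label guide 1. FOXC2 had 1 to 3, 0 to 2 and 24 to 33. In every list, a rise of a gene that passed the filter through label guide 1 alone is no independent support.

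Of 13 transcription factors of the epithelial state, 1 rose and 4 fell with guide 2, and 2 rose and 9 fell in the libraries labelled guide 1. SPDEF, a prostate luminal ETS factor, rose with guide 2 from 49.8 to 95.2 CPM (log2 fold change 0.93) and fell in the libraries labelled guide 1 to 31.0 CPM (-0.68). ELF3 and ELF5, other epithelial ETS factors, fell in both (-0.94 and -1.06 for ELF3, -0.95 and -0.805 for ELF5), and KLF4 fell with guide 2 (-1.96). GRHL2 and OVOL2, which repress ZEB1 in epithelia and are named here after their values were seen, were under the fold limit with guide 2 (0.20 and 0.28) and fell in the libraries labelled guide 1 (-0.96 and -0.92). The 2 rises there, also named afterwards, were of KLF5, from 11.4 CPM with shScramble to 17.9 CPM, and of GATA3, from 1.79 to 8.83 CPM.

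Of 13 tested adherens junction genes, 4 rose and 3 fell with guide 2, counts that became 2 and 5 with scaling by library size alone, and 2 rose and 5 fell in the libraries labelled guide 1. CDH3, or P-cadherin, rose with guide 2 from 24.7 to 51.1 CPM (log2 fold change 1.05) and fell in the libraries labelled guide 1 to 11.8 CPM (-1.06), and JUP, or plakoglobin, went the same 2 ways (0.74 and -0.71). AFDN, or afadin, went the other way (-0.61 and 1.23), as did CDH4 (-1.17 and 1.38). CTNNA3 fell in both (-0.97 and -1.08). VCL rose with guide 2 (0.65) and was under the fold limit in the libraries labelled guide 1 (-0.365). Of 20 tested tight junction and polarity genes, 0 rose and 1, CLDN8, fell with guide 2 (-0.59), whereas 1 rose and 11 fell in the libraries labelled guide 1, among them CLDN7 (-1.01) and EPCAM (-0.95), which are named after their values were seen. The single fall with guide 2 became 2 with scaling by library size alone. Between the guides, 14 of the 20 were higher with guide 2 and 1 was lower, beside 19.1% and 28.2% of all genes tested.

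Of 17 tested genes of the mesenchymal cytoskeleton, matrix and receptors, 1 rose and 10 fell with guide 2, and 8 rose and 1 fell in the libraries labelled guide 1. The 1 rise with guide 2, of NES (log2 fold change 0.70), was lost with scaling by library size alone. Of the 10 falls, 1 was of a gene, CCN2, that reached the filter's minimum in all libraries of label guide 1 alone. VCAN, the matrix proteoglycan versican, fell with guide 2 from 2.30 to 0.183 CPM (log2 fold change -3.57) and rose in the libraries labelled guide 1 to 21.8 CPM (3.28). SPARC and FBN1, both matrix proteins, moved likewise (-2.52 and 1.97 for SPARC, -1.96 and 1.64 for FBN1). Of 34 tested genes of TGF-beta and BMP signalling, a main inducer of EMT, 3 rose and 6 fell with guide 2 and 13 rose and 1 fell in the libraries labelled guide 1, and 2 of the 6 falls, of BMP2 and NOG, were of genes that passed the filter in that way. How many of the 13 rises were of such genes was not counted. BMP2 had 1 to 8 counts with shScramble and 19 to 27 in the libraries labelled guide 1, and NOG had 7 to 11 and 60 to 69. The ligand TGFB1 fell (-2.83) and rose (1.56), as did the receptors BMPR1B (-2.61 and 0.86) and TGFBR2 (-0.905 and 2.16). The co-receptor TGFBR3 rose in both (1.10 and 0.89). SMAD6 rose with guide 2 (1.07) and was under the fold limit in the libraries labelled guide 1 (-0.31).

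Of 11 tested splicing regulators other than the ESRP genes, 0 rose and 3 fell with guide 2, and 7 rose and 1 fell in the libraries labelled guide 1. MBNL2, a muscleblind protein, fell with guide 2 from 1.20 to 0.0573 CPM (log2 fold change -4.27) and rose in the libraries labelled guide 1 to 21.1 CPM (4.15). CELF2 went the same 2 ways (-1.32 and 1.26). PTBP2 fell with guide 2 (-0.70) and was under the fold limit in the libraries labelled guide 1 (0.34). QKI and RBFOX2, regulators of mesenchymal splicing named after their values were seen, rose in the libraries labelled guide 1 (1.48 and 0.88) and were under the fold limit with guide 2 (-0.42 and 0.08). The 1 fall there was that of RBM47, also named afterwards, at 164 CPM with shScramble, 170 with guide 2 and 85.2 with label guide 1. Of 8 genes that hold an exon regulated by ESRP proteins, 1 was called in each comparison with shScramble, and 2 were called lower with guide 2 under scaling by library size alone. The gene was CD44, the hyaluronan receptor, named after its values were seen, with 18, 9 and 12 counts with shScramble, 2, 6 and 1 with guide 2, and 62, 41 and 52 in the libraries labelled guide 1. CD44 was called lower with guide 2 (-1.80, adjusted p = 0.00613) and higher in the libraries labelled guide 1 (1.96, adjusted p = 8.24e-06), and it too reached the filter's minimum in all libraries of label guide 1 alone. The counts are per gene, so exon use was not measured.

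**Figure D4:**
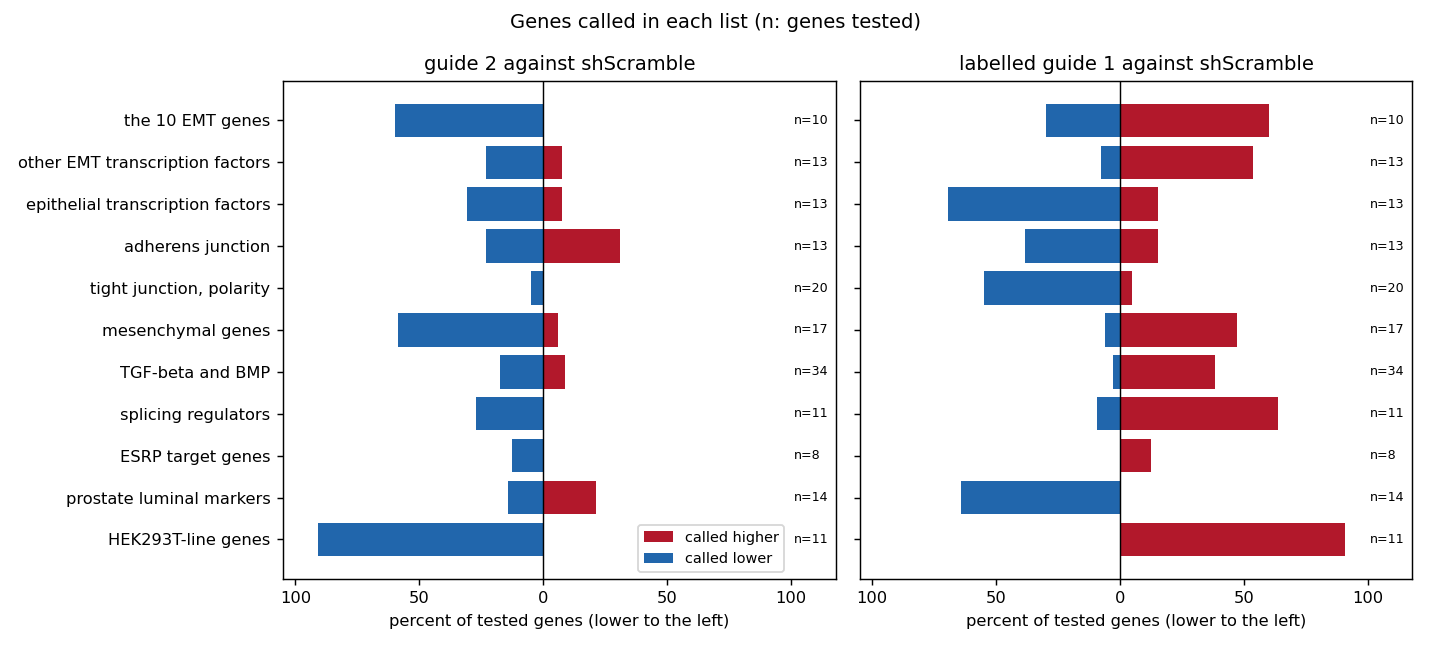
Percent of the tested genes of each list called higher (right of 0) or lower (left of 0) than shScramble with guide 2 and in the libraries labelled guide 1. Mesenchymal genes and HEK293T-line genes are mostly called lower with guide 2, and tight junction genes, epithelial transcription factors and luminal markers are mostly called lower in the libraries labelled guide 1.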

How the data were processed

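RNA-seq was measured in 9 libraries of LNCaP:C4-2 cells, 3 each of shScramble, shMETTL3 guide 2 and shMETTL3 guide 1, grouped by the sample labels. The authors trimmed reads with Trim Galore, FastQC and Cutadapt, aligned them with STAR to the Ensembl annotation of GRCh38 and counted them per gene with FeatureCounts. They deposited raw counts per gene and library, without normalisation. The strand setting and the treatment of reads matching several genes are not given in the sources used here, so a read from a region that several genes share, on either strand, may count for any of them.

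From these deposited counts, genes with too few reads were removed with filterByExpr (minimum count 10, minimum total 15) and libraries were scaled by TMM. edgeR 4.0.16 in R 4.3.3 was used for a quasi-likelihood F test in a single model of the 9 libraries, with one term for each group and no covariate. Genes were called at a Benjamini-Hochberg adjusted p under 0.05 over all genes tested and a fold change of at least 1.5. Levels are TMM-normalised CPM, or CPM per kilobase of exon, and ratios of small counts have exact binomial 95% intervals, which cover counting error only. The total count per library sets the precision: 3 counts, about the one-sided 95% upper limit for a count of 0, correspond to 0.0942 to 0.136 CPM. Marker sums add the CPM of all listed genes.

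The 10 EMT genes and all gene lists were chosen with earlier results of these data known. Named from each list of pathway genes were up to 3 called genes with the largest rise and up to 3 with the largest fall under guide 2, where the mean reached 1 CPM. Other genes of these lists are marked as named afterwards or are named for the filter on low counts. Of the marker lists of cells and cell lines, only some genes are named. The procedure was run on simulated counts for guide 2 against shScramble. Of 200 changed genes among 18349 tested, 191 were recovered, and 2 unchanged genes were called. In the measured libraries a far larger share, 29.3% of all genes tested, was called in this comparison. Recovery at that share, or for genes with as few counts as ZEB2 and TWIST1 with guide 2, was not tested. The alternatives were DESeq2 1.42.0, edgeR with the size factors of DESeq2, scaling by library size alone, omission of the filter, a mean of 1 CPM as the filter, fits of 6 libraries, a replicate block, each library left out, and no fold limit. Of the 60675 genes, 93.2% have a symbol. Protein sequences were not used here.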

Additional observations from a re-analysis of the deposited data

Results flagged for a closer look

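The levels of 8 EMT genes differed between the guide 2 libraries and the libraries labelled guide 1, by a direct test in edgeR's quasi-likelihood model. Of all genes tested, 47.3% were called in this comparison, 19.1% higher and 28.2% lower with guide 2. Among the 8, TWIST1 passed the filter on low counts only through the libraries labelled guide 1, so its difference is no independent support. The log2 fold changes were -7.43 for CDH2, -5.42 for VIM, -6.40 for ZEB1, -8.09 for ZEB2, -4.98 for SNAI2 and -7.72 for TWIST1, all lower with guide 2, and each of these genes was lower in 3 of 3 guide 2 libraries. Without guide 2 replicate 3 the value for ZEB2 was -9.67, and without guide 2 replicate 2 that for ZEB1 was -7.02. The summed HEK293T-line genes were at 5.36 CPM with guide 2 and 355 CPM in the libraries labelled guide 1, and their part in these differences was not tested. For CDH1 the log2 fold change was 0.61 and for ESRP2 1.03, both higher in 3 of 3 guide 2 libraries.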

How the results depend on the processing

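No call of an EMT gene changed direction under the alternatives run: 410 recomputed values of single genes kept their call or stayed uncalled, 6 gained the call and 3 lost it. The adjusted p alone crossed 0.05 for 4 uncalled values: CDH1 (4.5e-06 to 0.0605), ESRP2 (2.01e-05 to 0.0545) and FN1 with guide 2, and FN1 in the libraries labelled guide 1. With the adjusted p alone and no fold limit, 10 genes in place of 6 were called with guide 2, since CDH1, FN1, ESRP1 and ESRP2 passed. With a replicate block the calls numbered 6, 9 and 8, as without it; the replicate numbers are shared by label only, and paired deviations correlated between -0.098 and 0.053. Leaving out 1 library gave 6 called with guide 2, 9 in the libraries labelled guide 1 and 7 to 8 between the guides. In the 6 libraries compared alone, 5 were called with guide 2 because TWIST1 was not tested. Scaling by library size alone moved the median of all genes by -0.15 with guide 2 and the share of called genes that were higher from 30.2% to 17.2%; it moved 9 of 90 list counts by over 1.5 times and 9 of 30 levels per length by more than 1 SD. The uncalled FN1 difference between the guides changed sign there, to -0.08. Depth limits ZEB2, TWIST1 and, with guide 2, CDH2 and ZEB1.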

Other observations

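For each EMT gene, the genes whose log2 CPM followed it most closely over the 9 libraries were listed among 15422 genes of at least 1 CPM on average. The libraries form 3 groups, so Pearson's r here describes likeness in the levels of those groups and depth. CDH1 was followed most closely by GPR37, RPS6KA2 and CTDSP2 (0.994 to 0.996), ESRP1 by ARHGAP29, WWC3 and ATXN1 (0.995), and ESRP2 by LINC01694, LLGL2 and WASL (0.996). VIM was followed by GNAQ, SORCS1 and DTNA (0.999), SNAI2 by RBPMS2, SYDE1 and the neurofilament gene NEFM (0.999), and ZEB2 by HMGA2 (0.998), LINC00888 and WNT11 (0.996). CDH2 was closest to ROBO1, UNC5B and AKR1B1, ZEB1 to SERPINB1, FBXO17 and CACNG8, and TWIST1 to SNHG7, RIBC2 and PGAP1. Such likeness was common: 9.80% of the genes compared had r above 0.95 with CDH2 and 3.05% with CDH1, whereas 0% did with FN1, whose closest gene was BAZ2A (0.935).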
